A study of Mus musculus with 30 samples.

Results

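The comparison described here set left ventricles of transgenic mice expressing the human receptor for relaxin (hRXFP1) against left ventricles of mice without the transgene, all after 8 weeks of pressure overload by transverse aortic constriction (TAC), in which the aortic arch is tied to a smaller bore. The members were the 20 libraries labelled as TAC, out of 30 in the series, with 10 from transgenic hearts (TG TAC) and 10 from non-transgenic hearts (NTG TAC). The other libraries came from Sham-operated mice, 5 transgenic (TG Sham) and 5 non-transgenic (NTG Sham), and entered only where the text says so. The series title places the transgene in cardiomyocytes. The promoter, the number of founder lines, and the strain, age and sex of the mice are not given in the sources used here, and all 20 hearts shared the TAC operation. The labels number the samples of a group but do not say that each came from a separate animal. The p-values therefore rest on the spread between these samples, each of which is called a heart here.

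RNA was measured by strand-specific mRNA sequencing as read counts per gene. The 20 libraries held between 9231678 and 13093351 counts, and 13013 genes passed the filter on low counts. The 10 cardiomyocyte marker genes together made up 93673 to 104458 CPM in TG TAC hearts and 56910 to 103717 CPM in NTG TAC hearts. CPM are counts per 1e+06 counts, scaled between libraries, with the counts of all genes as the base for such sums. For single tested genes in TAC hearts the base was the counts of tested genes. Of 9 atrial marker genes 6 were tested and 1, Nppa, was called. The other 8 together made up 151 to 196 CPM in TG TAC hearts and 154 to 228 CPM in NTG TAC hearts, mostly from Gnao1, Tbx5 and Nr2f2, while Myl7, Sln and Bmp10 each stayed at or below 1.30 CPM in every TAC heart. Rxfp1 of the mouse was counted 0 to 14 times per TG TAC library and 0 to 4 times per NTG TAC library, too few to be tested. These reads were assigned to the mouse gene and not to the human sequence, so they do not check the transgene.

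Relaxin is a peptide hormone whose receptor RXFP1 couples to the stimulatory G protein and raises cyclic AMP. Heart muscle under pressure overload enlarges, turns on genes of the fetal heart such as those for natriuretic peptides and beta-myosin heavy chain, and gains collagen and other matrix proteins, which are made mostly by fibroblasts. Cells that make more protein than they can fold, or that run short of amino acids, raise chaperones and, through the transcription factor ATF4, genes for amino acid synthesis and transfer RNA charging.

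TG TAC and NTG TAC hearts differed both in mean levels and in how far hearts of a group lay apart. Nav2, Asns and several chaperone genes, among them Hsph1 and Hsp90ab1, were higher in every TG TAC heart than in any NTG TAC heart. Nppa, Myh7, Postn and other genes of hypertrophy and matrix had lower means in TG TAC hearts, with some NTG TAC hearts very high and others inside the TG TAC range. In the fit of means by edgeR's quasi-likelihood test, 600 of 13013 genes passed an adjusted p of 0.05, which is 4.61% of those tested. Of these, 268 (2.06%) were higher and 332 (2.55%) lower in TG TAC hearts, and 3226 genes (24.8%) had an unadjusted p under 0.05. The higher genes had a median log2 fold change of 0.31, and 13 of them differed more than 2-fold. The lower genes had a median log2 fold change of -0.47, with 59 beyond 2-fold. Over all tested genes the median log2 fold change was -0.01.

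The size of this count depended on single hearts. Leaving out each library in turn gave between 230 genes (without TG TAC replicate 1) and 1489 genes (without NTG TAC replicate 1), and for 17 of the 20 libraries the count moved by more than 1.5 times. In all 20 of these fits, 203 genes kept their call, 132 of them higher and 71 lower. With CPM that were not rescaled between libraries, limma-trend called 297 genes higher and 139 lower. With rescaling kept and weights that allow a different spread per group, limma called 416 higher and 324 lower. The main fit by edgeR used a single estimate of variation per gene for both groups. DESeq2 called 507 higher and 781 lower, so the balance of directions also varied with the method. The deposited sample names carry numbers whose meaning the labels do not give, with a number of 100 or more on 1 TG TAC and 3 NTG TAC libraries. Among the 16 libraries numbered under 100, 143 genes were higher and 78 lower. The 4 others allow no comparison of their own, with 1 TG TAC heart among them.

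For spread, the standard deviation of log2 CPM between hearts was smaller in TG TAC than in NTG TAC for 9925 of 13013 genes (76.3%), with a median log2 ratio of standard deviations of -0.44. The biological coefficient of variation, edgeR's common estimate of variation between hearts, was 9.99% in TG TAC, 20.4% in NTG TAC, 9.05% in TG Sham and 10.7% in NTG Sham hearts. Gene by gene, limma on absolute deviations from the median of the own group called 0.799% of the tested genes narrower in TG TAC hearts and 0 wider. At an unadjusted p under 0.05, 2002 genes (15.4%) were narrower and 56 (0.43%) wider. The number of single genes called is fragile: leaving out any 1 of the 10 NTG TAC hearts gave 0 calls, and leaving out a TG TAC heart gave 7 to 189. The fits in which a spread call was lost, as counted below for single genes, therefore always include these 10. With deviations taken from the group mean instead, 707 genes were called, 705 of them narrower in TG TAC hearts, and between 153 (without NTG TAC replicate 2) and 1271 (without NTG TAC replicate 5) when a library was left out, save for fewer still without NTG TAC replicate 3. The share of genes with a smaller standard deviation in TG TAC hearts stayed between 73.1% and 77.5% when each library was left out, and was 67.9% without NTG TAC replicates 2 and 10.

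**Figure D1:**
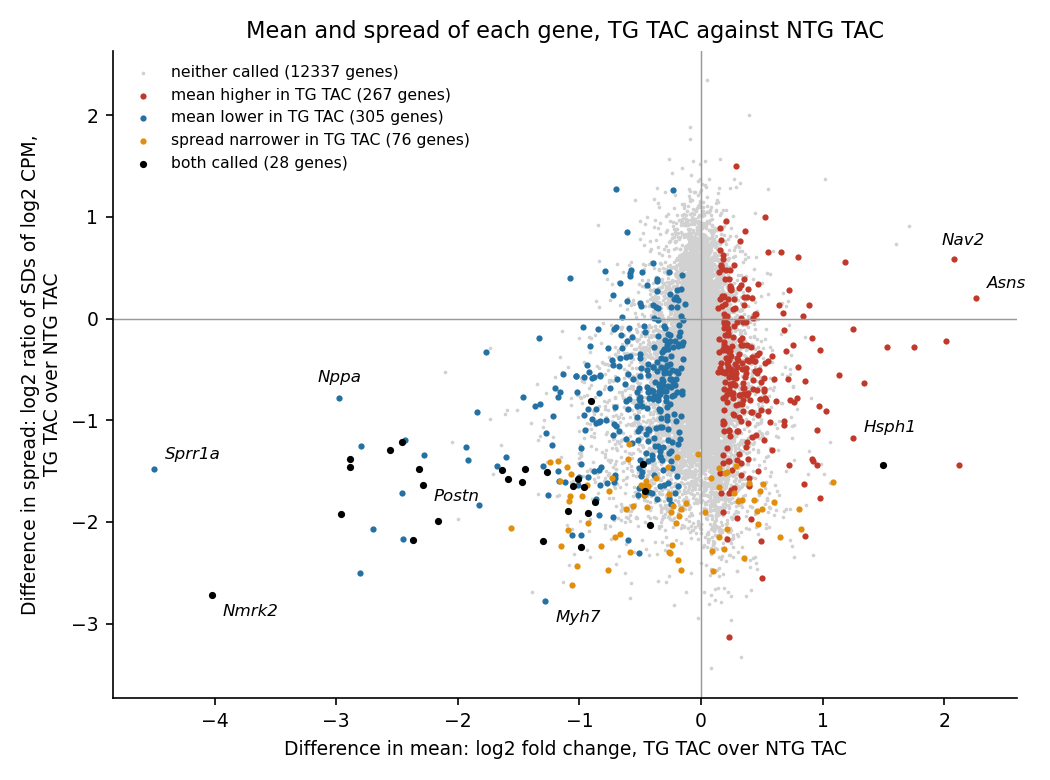
Difference in mean (log2 fold change, TG TAC over NTG TAC, horizontal) against difference in spread (log2 ratio of standard deviations of log2 CPM, TG TAC over NTG TAC, vertical) for 13013 genes, 1 point each, coloured by the test passed. Of the 332 lower genes 296 lie below a spread ratio of 0, as do 207 of the 268 higher genes.

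Some genes were called both in mean and in spread. Of the genes called narrower, 27 were also called lower in mean, which is 26.0% of the narrower and 8.13% of the lower genes, and 1, Ddc, was also called higher. Over all tested genes the shares were smaller, with 2.55% called lower and 0.799% called narrower. The other 76 narrower genes had no call in mean, and their median log2 fold change was -0.24. The 2 groups of hearts did not overlap at all for 43 genes, of which 35 (0.269% of those tested) had every TG TAC heart above every NTG TAC heart and 8 (0.0615%) had every TG TAC heart below. All 43 were called in mean, and 42 of them kept that call in each of the 20 fits that left out a library.

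Nav2, which encodes neuron navigator 2, a protein of the cytoskeleton, had the smallest p of all genes (gene ID 78286, GRCm38 chromosome 7, 48959063 to 49610090). It ran from 332.8 to 522.8 CPM with a median of 403.5 in TG TAC hearts and from 79.97 to 111.2 CPM with a median of 98.2 in NTG TAC hearts. The lowest TG TAC heart thus lay well above the highest NTG TAC heart. The log2 fold change was 2.08 ± 0.07 (SE), with an adjusted p of 5.77e-15 by edgeR's quasi-likelihood test. Its paralogs Nav1 and Nav3 did not pass, with log2 fold changes of -0.19 and 0.04. Within 2 Mb of Nav2 on either side, 8 other genes were tested and 1 was called, Csrp3, with a log2 fold change of -0.37 and an adjusted p of 0.0385, a call lost in 12 of the 20 fits that left out a library. The nearest tested genes on either side of Nav2, E2f8 and Htatip2, had log2 fold changes of -0.55 and 0.03 and did not pass.

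Among 37 tested genes of cyclic AMP signalling, the second-messenger system that RXFP1 feeds, 1 was higher and 3 were lower in TG TAC hearts, and the median log2 fold change was -0.02. Pde1c, a calmodulin-dependent phosphodiesterase that breaks down cyclic nucleotides, ran from 44.1 to 56.7 CPM in TG TAC hearts and from 65.5 to 85.4 CPM in NTG TAC hearts. Every TG TAC heart was below every NTG TAC heart (log2 fold change -0.65 ± 0.06, adjusted p = 2.64e-07 by edgeR). Prkar1a, a regulatory subunit of protein kinase A, averaged 756 ± 78.8 CPM in TG TAC hearts and 1050 ± 281 CPM in NTG TAC hearts (SD, n = 10 each). Its mean was lower (adjusted p = 0.0353) and its spread narrower (adjusted p = 0.0350 by limma). The call in mean was lost in 12 of the 20 fits that left out a library, with adjusted p up to 0.0677, and the call in spread in 18. The phosphodiesterase gene Pde7a was higher (0.37 ± 0.10) and the adenylyl cyclase gene Adcy1 lower (-0.58 ± 0.17), calls that were lost in 13 and 15 of those fits, with adjusted p up to 0.0781 and 0.0896.

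Of the 35 genes with every TG TAC heart above every NTG TAC heart, 2 belonged to the list of heat shock genes, Hsp90ab1 and Hsph1. Hsp90ab1, the constitutive form of the chaperone HSP90 (gene ID 15516, chromosome 17), ran from 2577 to 2887 CPM in TG TAC hearts and from 1671 to 2066 CPM in NTG TAC hearts. The groups did not overlap, the values within each were tight, and the log2 fold change was 0.54 ± 0.05 (adjusted p = 3.77e-07 by edgeR). Hsph1, a large heat shock protein that resets HSP70 by exchanging its nucleotide, ran from 120.5 to 172.8 CPM in TG TAC hearts and from 41.3 to 93.7 CPM in NTG TAC hearts. Its log2 fold change was 1.25 ± 0.11 (adjusted p = 6.51e-07), again with no overlap. Hspa8, the constitutive HSP70, was higher by 0.46 ± 0.09 (adjusted p = 0.00816), with 8 of 10 NTG TAC hearts below the TG TAC range. Of 15 tested heat shock genes, 3 were higher and 0 lower, with a median log2 fold change of 0.30.

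The stress-induced genes Hsp90aa1 and Hspa1a were not called. Hsp90aa1, the inducible HSP90, averaged 174.2 ± 45.02 CPM in TG TAC hearts and 133.5 ± 54.3 CPM in NTG TAC hearts (adjusted p = 0.252). Hspa1a, an inducible HSP70, ran from 2.84 to 55.1 CPM in TG TAC hearts and from 1.49 to 8.98 CPM in NTG TAC hearts (adjusted p = 0.0759), and its highest value was that of TG TAC replicate 9 alone. The log2 fold change of Hspa1a was positive, from 0.78 to 1.85, in the 20 fits that left out a library, and none of them called it. Hspa1a shares nearly all of its sequence with Hspa1b, so the reads of these 2 genes are uncertain. How reads shared between near-identical copies were counted is not given in the sources used here, and HSP90 and chaperonin genes also have pseudogenes.

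Several partners of HSP90 were also higher. Unc45b, which folds muscle myosin together with HSP90, ran from 284.6 to 397.3 CPM in TG TAC hearts and from 145.9 to 237.9 CPM in NTG TAC hearts, with no overlap (log2 fold change 0.79 ± 0.08, adjusted p = 2.32e-06 by edgeR). Stip1, which links HSP70 to HSP90, ran from 180.9 to 218.0 CPM in TG TAC hearts against 125.3 to 165.4 CPM in NTG TAC hearts. Ahsa1, an activator of the HSP90 ATPase, ran from 119.7 to 143.2 CPM in TG TAC hearts against 90.6 to 113.9 CPM in NTG TAC hearts. Cacybp, St13 and Ahsa2, and Hspa4l, a relative of Hsph1, also had no overlap, with log2 fold changes of 0.41, 0.32, 0.42 and 0.38. Of 13 tested HSP90 partners 8 were higher and 0 lower, and of 8 subunits of the chaperonin CCT, which folds actin and tubulin, 4 were higher and 0 lower. Both of these lists were drawn up after values had been seen, so their counts describe and support nothing. Smyd2, a methyltransferase that acts on HSP90 among other proteins, ran the other way, from 120.8 to 134.8 CPM in TG TAC hearts and from 146.0 to 177.0 CPM in NTG TAC hearts (log2 fold change -0.33 ± 0.04, adjusted p = 5.84e-05).

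In mitochondria, both parts of the chaperonin rose. Hspe1, the lid of the mitochondrial chaperonin, ran from 56.2 to 70.0 CPM in TG TAC hearts and from 34.3 to 50.5 CPM in NTG TAC hearts (log2 fold change 0.60 ± 0.06, adjusted p = 2.84e-06 by edgeR). Hspd1, its barrel, was higher by 0.42 ± 0.08, also with no overlap, and Hspa9, the mitochondrial HSP70, by 0.33 ± 0.07 with 9 of 10 NTG TAC hearts below the TG TAC range. These were the 3 higher genes among 13 tested mitochondrial chaperones and proteases, of which 0 were lower. In the endoplasmic reticulum 5 of 19 tested folding genes were higher and 0 lower, with a median of 0.18. They were Dnajb9, a cochaperone of BiP (0.73 ± 0.10), the lectin chaperone Canx (0.34 ± 0.05), Hspa5, which encodes BiP (0.45 ± 0.08), the secreted factor Manf (0.55 ± 0.10) and the transcription factor Xbp1 (0.25 ± 0.06). Dnajb9 and Canx had no overlap between the groups. The call of Xbp1 was lost without TG TAC replicate 1, 2 or 9, with adjusted p up to 0.0589.

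**Figure D2:**
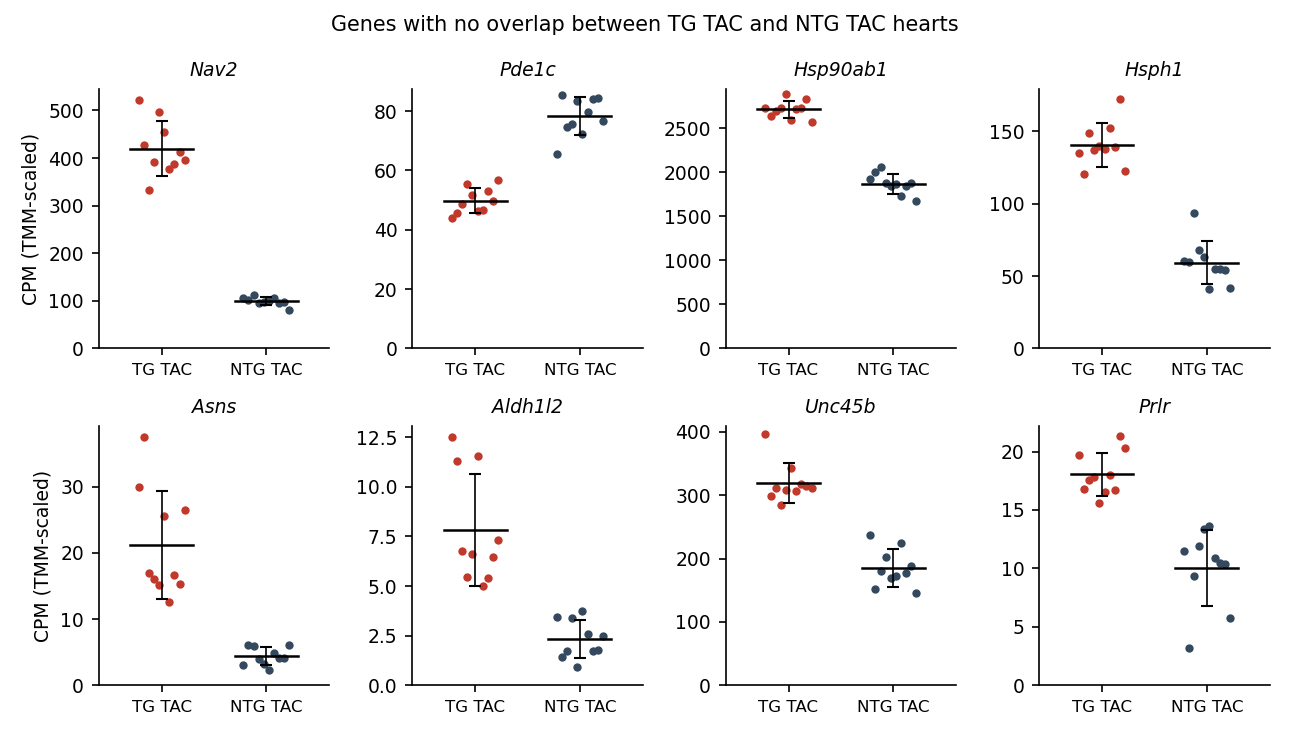
TMM-scaled CPM of 8 genes in each of 10 TG TAC hearts (left) and 10 NTG TAC hearts (right), 1 point per heart, with group means as bars and standard deviations as whiskers. In each panel the hearts of the 2 groups share no value range, with Pde1c lower and the other genes higher in TG TAC hearts.

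Genes of amino acid supply under ATF4, known as the integrated stress response, held several of the largest rises, that of Asns being the largest of all called genes. Asns, asparagine synthetase (gene ID 27053, chromosome 6), ran from 12.5 to 37.5 CPM with a median of 16.9 in TG TAC hearts and from 2.31 to 6.14 CPM with a median of 4.05 in NTG TAC hearts. The groups did not overlap, and TG TAC replicates 1, 2, 6 and 10 were the highest. The log2 fold change was 2.26 ± 0.21 (adjusted p = 2.10e-06 by edgeR). Mthfd2, a mitochondrial enzyme of one-carbon metabolism, ran from 12.4 to 38.6 CPM in TG TAC hearts and from 2.25 to 12.5 CPM in NTG TAC hearts. The same 4 TG TAC hearts were highest, and 1 NTG TAC heart, replicate 10, reached just into the TG TAC range (log2 fold change 2.01 ± 0.28, adjusted p = 0.000393). Aldh1l2, another mitochondrial enzyme of that pathway, ran from 4.998 to 12.5 CPM in TG TAC hearts and from 0.939 to 3.74 CPM in NTG TAC hearts, with no overlap (1.75 ± 0.23, adjusted p = 8.44e-05).

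Over the whole list the picture was mixed. Of 31 tested genes of this response 8 were higher and 1 was lower, with a median log2 fold change of 0.08. The others that rose were Atf5, a transcription factor of the response (0.66 ± 0.14), Gpt2, which makes alanine (0.68 ± 0.13), the amino acid transporter Slc7a5 (0.76 ± 0.18), the proline enzyme Aldh18a1 (0.50 ± 0.13) and the serine enzyme Phgdh (1.25 ± 0.33). The calls of Slc7a5, Aldh18a1 and Phgdh were lost in 1, 4 and 8 of the 20 fits without a library, with adjusted p up to 0.0507, 0.0651 and 0.0725. Gdf15, a secreted stress factor that is also counted with the hypertrophy genes, was the lower member. Atf4 itself averaged 130 ± 21.6 CPM in TG TAC hearts and 115.2 ± 29.7 CPM in NTG TAC hearts and did not pass (adjusted p = 0.388). Ddit3, Trib3 and Chac1, targets of the response in prolonged stress, did not pass either, with log2 fold changes of -0.17, 0.36 and 0.59.

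Enzymes that charge transfer RNAs with amino acids were the other part of this group. Of 18 tested cytosolic aminoacyl-tRNA synthetases 6 were higher and 0 lower, with a median log2 fold change of 0.13. Mars1, for methionine, ran from 62.0 to 94.5 CPM in TG TAC hearts and from 46.8 to 56.7 CPM in NTG TAC hearts, with no overlap (0.53 ± 0.06, adjusted p = 1.29e-05 by edgeR). Cars, for cysteine, was higher by 0.43 ± 0.08 (adjusted p = 0.00303), with 9 of 10 NTG TAC hearts below the TG TAC range. Sars, Aars, Iars and Tars, for serine, alanine, isoleucine and threonine, were higher by 0.26, 0.33, 0.22 and 0.14. Their calls were lost in 1, 4, 14 and 16 of the 20 fits without a library, with adjusted p up to 0.0503, 0.0611, 0.0855 and 0.108.

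The promoters of 3 of these genes held the core of the amino acid response element, the sequence through which ATF4 acts, and are shown because each of the 3 genes was called higher. The core was written as TGATGNAA and looked for on both strands in the 250 bases before the first listed start of each gene, with sequences from RefSeq (GRCm38.p6). It was found in 3.53% of all 27025 promoters and in 1.92% of the 10348 belonging to tested genes. Promoters were listed for 26 of the 31 tested stress response genes, of which 6 held it, and for 11 of the 18 synthetase genes, of which 3 held it. Among members that were higher, it was in 1 of 6 listed stress response promoters (Asns) and 2 of 5 listed synthetase promoters (Aars and Tars). Mthfd2, Mars1, Atf5, Gpt2 and Phgdh had no match in this window, which says only that these letters are not in it. The sequences run 5′ to 3′ on the strand of the gene, for Asns on chr6:7693210-7693459 (minus strand), Aars on chr8:111033592-111033841 (plus strand) and Tars on chr15:11399659-11399908 (minus strand), with the match in capitals, which reads on the opposite strand in Aars and Tars.
Asns: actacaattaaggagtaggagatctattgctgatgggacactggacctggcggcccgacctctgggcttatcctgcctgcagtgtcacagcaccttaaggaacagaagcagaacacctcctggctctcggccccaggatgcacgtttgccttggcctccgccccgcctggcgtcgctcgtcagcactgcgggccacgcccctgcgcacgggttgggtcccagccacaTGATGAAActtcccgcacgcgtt
Aars: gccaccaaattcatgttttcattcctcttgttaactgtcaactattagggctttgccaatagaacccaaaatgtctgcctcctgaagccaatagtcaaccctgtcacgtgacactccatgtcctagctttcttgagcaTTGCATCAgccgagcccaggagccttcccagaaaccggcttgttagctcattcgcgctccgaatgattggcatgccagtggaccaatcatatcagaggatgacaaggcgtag
Tars: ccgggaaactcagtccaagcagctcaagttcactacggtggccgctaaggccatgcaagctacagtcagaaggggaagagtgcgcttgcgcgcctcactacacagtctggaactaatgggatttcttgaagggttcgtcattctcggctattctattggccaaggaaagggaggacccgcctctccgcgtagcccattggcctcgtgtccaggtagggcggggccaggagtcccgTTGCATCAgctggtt
The match began 23 bases before the start of Asns, 112 before that of Aars and 15 before that of Tars. The core of the heat shock element, GAANNTTC, which reads the same on both strands, was in 4.79% of promoters of tested genes, in 3.62% of those of all genes called higher and in 4 of the 10 listed promoters of tested heat shock genes. It was in 1 of the 6 listed promoters examined among the higher chaperone genes, that of Hspe1, and not in those of Hspd1, Hsph1, Stip1, Ahsa1 or Unc45b.

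The same transgene difference was measured in Sham hearts in a fit of all 30 libraries. That fit used a single estimate of variation per gene for all groups. The common variation was 20.4% in NTG TAC, 9.05% in TG Sham and 10.7% in NTG Sham hearts. The errors of the Sham differences thus include the spread of NTG TAC hearts. A Sham difference, or a difference between effects, that did not pass is therefore not shown to be absent. Of the genes called after TAC, 69 were also called with the same sign in Sham hearts, 57 higher and 12 lower. The Sham difference by itself called 99 of 13588 tested genes (0.729%), 81 (0.596%) of them higher and 18 (0.132%) lower in TG Sham hearts. Nav2 had a log2 fold change of 2.11 ± 0.10 in Sham hearts (478 ± 49.0 CPM in TG Sham and 111 ± 7.54 CPM in NTG Sham, SD, n = 5 each), Pde1c -0.62 ± 0.08, Hsp90ab1 0.51 ± 0.06, Hsph1 1.49 ± 0.17 and Unc45b 0.78 ± 0.11. Asns had 3.84 ± 0.31 in Sham hearts and 2.26 in TAC hearts of the same fit, and Mthfd2 4.79 ± 0.41 in Sham and 2.01 in TAC hearts. The test of the difference between the TAC and Sham effects gave -2.78 ± 0.49 for Mthfd2 (adjusted p = 0.0590 by edgeR) and -1.58 ± 0.37 for Asns (adjusted p = 0.266). That test called 0 of 13588 genes (0%), with 1103 (8.12%) at an unadjusted p under 0.05, and DESeq2 called 5. For Nppa, Myh7 and Postn the Sham differences were -1.59 ± 0.72, 0.04 ± 0.37 and -0.03 ± 0.71, with adjusted p of 0.632, 0.998 and 0.998, and their difference from the TAC effect did not pass (adjusted p = 0.640, 0.614 and 0.614). Nppa ran from 48.8 to 177 CPM in TG Sham hearts and from 239 to 460 CPM in NTG Sham hearts, so its Sham groups did not overlap. The share of all genes without overlap between these groups of 5 was not computed.

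Of 23 tested hypertrophy genes 9 had a lower mean in TG TAC hearts, with wide values among NTG TAC hearts. Nppa, the gene of atrial natriuretic peptide (gene ID 230899, chromosome 4), ran from 87.6 to 995 CPM with a median of 572 in TG TAC hearts and from 386 to 9526 CPM with a median of 3642 in NTG TAC hearts. NTG TAC replicates 2, 3, 5, 8 and 10 lay at 5667 to 9526 CPM and replicate 9 at 1617 CPM, while replicates 1, 4, 6 and 7 lay inside the TG TAC range. The log2 fold change was -2.98 ± 0.60 (adjusted p = 0.0109 by edgeR), and it passed in each of the 20 fits without a library. Its spread on the log scale was not called (log2 ratio of standard deviations -0.78, adjusted p = 0.128 by limma). In bulk tissue, fewer cells of a type and less RNA per cell cannot be told apart.

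Myh7, the slow beta-myosin heavy chain (gene ID 140781, chromosome 14), ran from 651 to 886 CPM in TG TAC hearts and from 783 to 4058 CPM in NTG TAC hearts. TG TAC hearts lay within a narrow band, NTG TAC replicates 2, 3 and 10 lay at 3313 to 4058 CPM, and NTG TAC replicates 1, 4 and 7 lay in the TG TAC range. The mean was lower (log2 fold change -1.28 ± 0.31, adjusted p = 0.0292), and the standard deviation of log2 CPM was lower by a log2 ratio of -2.78, which did not pass the spread test (adjusted p = 0.0718). The call in mean was lost without TG TAC replicate 1, 2, 6 or 9 or NTG TAC replicate 2, 3 or 10, with adjusted p up to 0.0579. Mhrt, a noncoding RNA transcribed on the opposite strand of the Myh7 locus, was higher in every TG TAC heart, with 38.8 to 69.9 CPM in TG TAC hearts and 11.9 to 36.04 CPM in NTG TAC hearts (0.95 ± 0.15, adjusted p = 0.00111). Whether reads were counted by strand is not given in the sources used here, so reads of these overlapping genes are uncertain. Myh6, the fast alpha-myosin heavy chain, averaged 20913 ± 2011 CPM in TG TAC hearts and 16612 ± 4281 CPM in NTG TAC hearts and did not pass (adjusted p = 0.128).

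Nppb, for brain natriuretic peptide, averaged 288 ± 106.3 CPM in TG TAC hearts and 720 ± 545 CPM in NTG TAC hearts, and Ankrd1, for an ankyrin repeat protein found in sarcomeres and nuclei, 2869 ± 897 CPM in TG TAC hearts and 6282 ± 3011 CPM in NTG TAC hearts (SD, n = 10 each). Both were lower, with log2 fold changes of -1.32 ± 0.37 (adjusted p = 0.0487) for Nppb and -1.13 ± 0.28 (adjusted p = 0.0305) for Ankrd1. The call of Nppb was lost without any 1 of the 10 TG TAC hearts and without NTG TAC replicate 2, 3, 5, 8 or 10 (adjusted p up to 0.101). That of Ankrd1 was lost without TG TAC replicate 1, 2 or 6 or NTG TAC replicate 2, 3, 5, 8 or 10 (up to 0.0582). Nmrk2, an enzyme of NAD synthesis in muscle, ran from 3.73 to 7.77 CPM in TG TAC hearts and from 5.34 to 532 CPM in NTG TAC hearts. Its 5 highest NTG TAC hearts were again replicates 2, 3, 5, 8 and 10, and it was lower in mean (-4.02 ± 0.87, adjusted p = 0.0162) and narrower in spread (adjusted p = 0.0411, lost in 19 fits). Acta1, skeletal alpha-actin, ran from 1234 to 9043 CPM in TG TAC hearts and from 1162 to 14774 CPM in NTG TAC hearts and was not called in mean or spread (adjusted p = 0.621 and 0.798).

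Over the list of hypertrophy genes 0 were higher in TG TAC hearts, the median log2 fold change was -0.73, and 5 were called narrower. The other lower members were Sprr1a (-4.50 ± 1.13), the matricellular factor Ccn2 (-1.93 ± 0.49), Gdf15 (-2.16 ± 0.60) and the Z-disc protein Csrp3 (-0.37 ± 0.10). Of the 9 calls in mean, those of Nppa and Nmrk2 held in each fit without a library, and those of the other 7 were lost in 7 to 15 of the 20 fits. By limma with weights that allow a different spread per group, the calls of Nppb and Sprr1a were lost, while those of Myh7 and Ankrd1 held. That of Nppa also held in the other settings run, with -2.57 (adjusted p = 0.0421) without NTG TAC replicates 2 and 10. That of Nmrk2 was lost there (-2.36, adjusted p = 0.0663), in libraries numbered under 100 (-2.84, adjusted p = 0.0641), with the replicate block (-2.53, adjusted p = 0.0876) and in 3 fits by limma (adjusted p from 0.071 to 0.122). Without NTG TAC replicates 2 and 10 together, as an alternative chosen after the data were seen, 236 genes were called over all genes, 150 higher and 86 lower. Among the atrial markers, Dkk3 averaged 5.96 ± 1.82 CPM in TG TAC hearts and 14.9 ± 11.1 CPM in NTG TAC hearts (-1.34 ± 0.40, adjusted p = 0.0579) and Myl4 reached 6.33 CPM in TG TAC hearts and 3.09 CPM in NTG TAC hearts. The part of atrial tissue in the Nppa values was not tested.

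**Figure D3:**
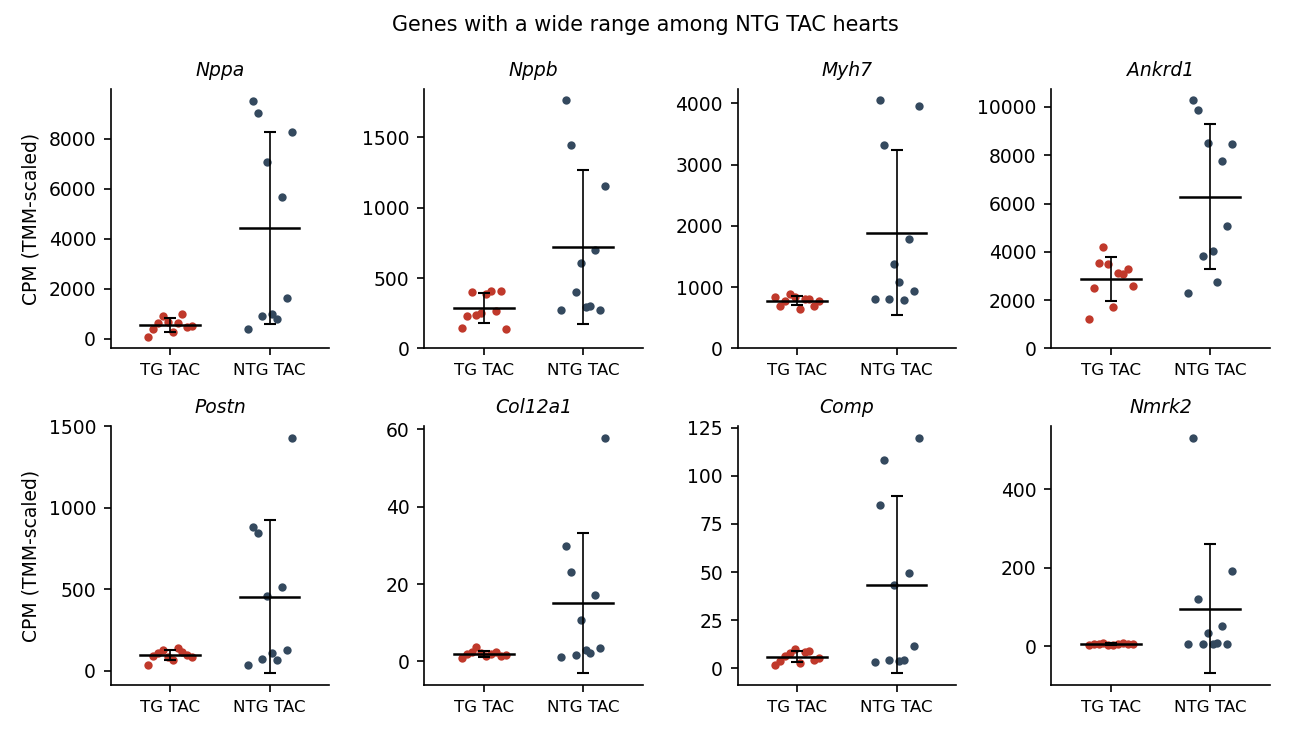
TMM-scaled CPM of 8 hypertrophy and matrix genes in each of 10 TG TAC hearts (left) and 10 NTG TAC hearts (right), 1 point per heart, with group means as bars and standard deviations as whiskers. In each panel 3 to 5 NTG TAC hearts lie inside the TG TAC range and the rest lie above it.

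Matrix genes showed the same pattern, with a difference in spread as often called as a difference in mean. All 42 tested extracellular matrix genes had negative log2 fold changes, with a median of -0.99, against -0.01 over all tested genes. Of these 11 were lower in mean and 11 narrower in spread, and 0 were higher. Postn, periostin, a matrix protein of activated fibroblasts (gene ID 50706, chromosome 3), ran from 32.0 to 136 CPM with a median of 90.1 in TG TAC hearts and from 34.3 to 1430 CPM with a median of 289 in NTG TAC hearts. NTG TAC replicates 2, 3, 5, 8 and 10 lay at 455 to 1430 CPM and the others at 34.3 to 123 CPM, inside the TG TAC range. The log2 fold change was -2.29 ± 0.59 (adjusted p = 0.0357 by edgeR) and the log2 ratio of standard deviations -1.63 (adjusted p = 0.0232 by limma). Each call was lost in 13 of the 20 fits without a library. The call in mean was also lost by limma with weights that allow a different spread per group.

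Col12a1, a collagen on the surface of fibrils, averaged 1.96 ± 0.782 CPM in TG TAC hearts and 15.0 ± 18.1 CPM in NTG TAC hearts, and Comp, a cartilage matrix protein, 5.90 ± 2.82 CPM in TG TAC hearts and 43.3 ± 46.1 CPM in NTG TAC hearts (SD, n = 10 each). Both were lower in mean (-2.96 ± 0.66 and -2.89 ± 0.68) and narrower in spread, the spread calls being lost in 12 and 14 fits. Lox, which crosslinks collagen, Ltbp2, a fibrillin-binding protein, the protease inhibitor Timp1 and the matricellular protein Thbs4 had log2 fold changes of -2.70 ± 0.65, -2.80 ± 0.69, -2.37 ± 0.58 and -2.46 ± 0.68. Of the 11 calls in mean, that of Col12a1 held in each fit without a library. It was lost without NTG TAC replicates 2 and 10 (-2.02, adjusted p = 0.0765), in libraries numbered under 100 (-2.76, adjusted p = 0.0669), with the replicate block (-2.31, adjusted p = 0.0552) and in 3 fits by limma (adjusted p from 0.0621 to 0.105). The 10 others were lost without TG TAC replicate 1 or NTG TAC replicate 3 or 10 and in 3 (Comp) to 15 (Thbs4 and Col8a1) of the 20 fits, with adjusted p up to 0.108. By limma with weights that allow a different spread per group, the calls of Comp, Lox, Ltbp2 and Mfap5 were also lost. Col1a1, the main fibrillar collagen chain, ran from 162 to 279 CPM in TG TAC hearts and from 139 to 1383 CPM in NTG TAC hearts and was not called (mean adjusted p = 0.0690, spread adjusted p = 0.0540). Its mean was called without NTG TAC replicate 1, 4 or 7 (adjusted p down to 0.0266).

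In the transforming growth factor beta pathway, a driver of matrix production, 4 of 21 tested genes were lower and 0 higher, with a median of -0.26. Among them were the growth factor Bmp4 (-0.59 ± 0.14) and the inhibitory signal proteins Smad7 (-0.34) and Smad6 (-0.38), and the calls of Smad7 and Smad6 were lost in 7 and 15 of the 20 fits without a library, with adjusted p up to 0.0600 and 0.0828. Of 14 tested fibroblast markers 2 were lower, Mfap5 and Pi16, whose calls were lost in 13 and 14 fits, and 1 was higher, Acta2, the smooth muscle actin of mural cells and myofibroblasts (0.89 ± 0.14, adjusted p = 0.000889). Acta2 averaged 260 ± 60.4 CPM in TG TAC hearts and 140 ± 30.9 CPM in NTG TAC hearts, and its call held in each fit. The summed level of the 15 listed fibroblast markers ran from 2897 to 3349 CPM in TG TAC hearts and from 2994 to 4167 CPM in NTG TAC hearts. That of 20 macrophage markers ran from 340 to 593 CPM in TG TAC hearts and from 297 to 1338 CPM in NTG TAC hearts, and none of the markers of either list was at 0 in all 20 hearts. Of the 20 tested macrophage genes 1, Lgals3, was lower (-2.45 ± 0.69, adjusted p = 0.0474), and its call was lost in 15 of the 20 fits (up to 0.121). The part of these cell types in the matrix values was not tested.

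Genes of cell division had a median log2 fold change of -0.64 over 23 tested members, of which 3 were lower and 0 higher. Mcm2, a subunit of the replication helicase, averaged 9.77 ± 1.66 CPM in TG TAC hearts and 15.0 ± 3.18 CPM in NTG TAC hearts (-0.62 ± 0.12, adjusted p = 0.00479 by edgeR), with 7 of 10 NTG TAC hearts above the TG TAC range. The mitotic genes Ccna2 (-1.23 ± 0.31) and Cdk1 (-1.27 ± 0.35) were at a few CPM, and their calls were lost in 6 and 13 of the 20 fits, with adjusted p up to 0.0665 and 0.0785.

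Some genes were called in spread and not in mean. Serpine2, an inhibitor of thrombin and other proteases, ran from 45.6 to 58.7 CPM with a median of 52.6 in TG TAC hearts and from 34.2 to 109 CPM with a median of 57.2 in NTG TAC hearts. NTG TAC replicates 2, 3, 5, 8 and 10 lay above every TG TAC heart, 4 other NTG TAC hearts lay below every TG TAC heart, and the log2 fold change was -0.25 (adjusted p = 0.436). Its spread was narrower in TG TAC hearts by a log2 ratio of standard deviations of -2.30 (adjusted p = 0.0110 by limma). Spcs3, a subunit of the signal peptidase, ran from 88.1 to 110 CPM in TG TAC hearts and from 63.1 to 188 CPM in NTG TAC hearts, with 4 NTG TAC hearts above and 5 below the TG TAC range. Slc36a2, an amino acid transporter, ran from 30.3 to 38.5 CPM in TG TAC hearts and from 14.7 to 51.4 CPM in NTG TAC hearts, with NTG TAC replicates 2, 3 and 10 among the lowest. Uck2, a kinase of uridine salvage, ran from 54.0 to 77.8 CPM in TG TAC hearts and from 47.4 to 370 CPM in NTG TAC hearts. Spcs3, Slc36a2 and Uck2 were called narrower (adjusted p = 0.0493, 0.0456 and 0.0411) and not called in mean (0.569, 0.786 and 0.0864). The call of Serpine2 was lost in 10 of the 20 fits without a library, and those of the 3 others in 19. The 10 fits for Serpine2 were those without an NTG TAC heart, in which no gene at all was called in spread.

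The narrower genes were 27 also called lower in mean, Ddc, and 76 without a call in mean. Among them, NTG TAC replicates 2, 3 and 10 were the 3 highest NTG TAC hearts in 68 genes. Each of these replicates was among the 3 lowest NTG TAC hearts in 24 to 26 of the narrower genes. The genes were picked for their spread among these same hearts, so the counts describe and support nothing. The share over all tested genes was not computed. No gene was called wider in TG TAC hearts. The 5 genes with the smallest p in that direction were C1rl, Tspan2, 0610030E20Rik, Meox2 and Zfp24, with log2 ratios of standard deviations from 0.84 (Meox2) to 2.34 (0610030E20Rik) and adjusted p from 0.161 (Zfp24) to 0.207 (0610030E20Rik). In C1rl the widest value was that of TG TAC replicate 1.

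The heart as a whole was then taken as the unit. The distance of a heart was the root mean square over all genes of its deviation from the median of its own group, in log2 CPM. It averaged 0.226 ± 0.0247 in TG TAC hearts and 0.330 ± 0.0972 in NTG TAC hearts (SD, n = 10 each), and 6 of 10 NTG TAC hearts lay farther out than every TG TAC heart. The difference of -0.103 had p = 0.00122 by a two-sided permutation test over hearts, and stayed between -0.120 and -0.0846 when each heart was left out, with p at most 0.00402. Among the libraries numbered under 100 it was -0.0791 (permutation p = 0.00151). NTG TAC replicates 10 and 2 were the farthest, at 0.514 and 0.465, and without both the difference was -0.0558 (permutation p = 0.00647).

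The first principal component held 43.9% of the variance of log2 CPM. TG TAC hearts ran from -29.1 to -3.91 on it and NTG TAC hearts from -23.9 to 59.1. NTG TAC replicates 2, 3, 5, 8 and 10 lay above every TG TAC heart, and the other 5 lay within the TG TAC range. Of the 3 NTG TAC libraries numbered 100 or more in the sample name, replicates 2 and 3 were among the highest on this component. Replicate 1 was the lowest of its group. Replicates 2 and 3 of NTG TAC carried the highest numbers of the series. A relation between number and order was not tested.

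**Figure D4:**
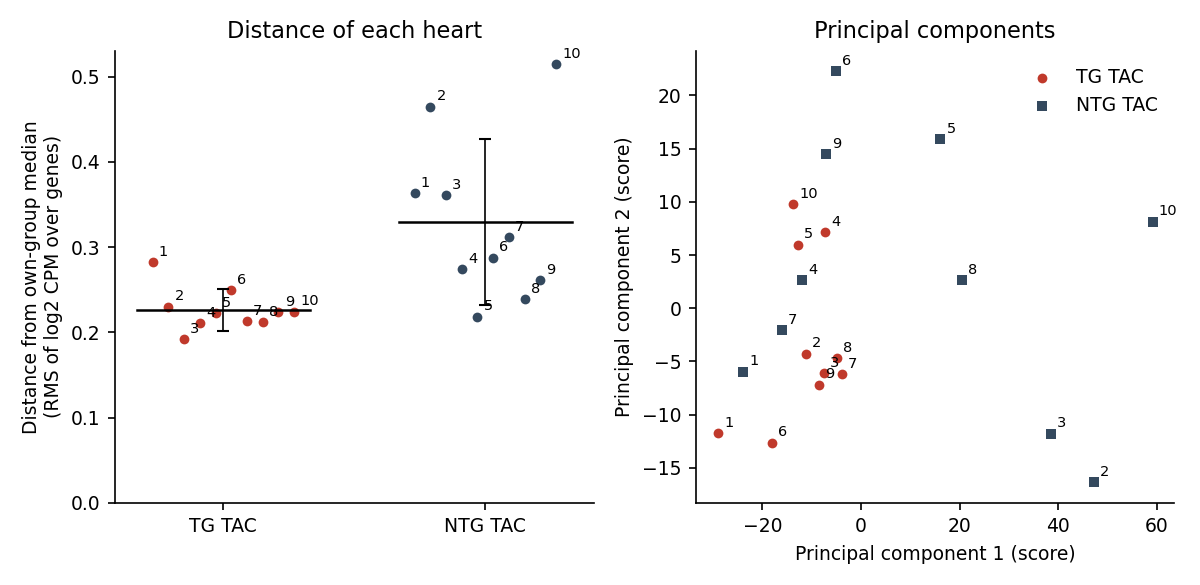
Left, distance of each heart from the median of its own group (root mean square of log2 CPM over 13013 genes) for 10 TG TAC and 10 NTG TAC hearts, with group means as bars and standard deviations as whiskers. Right, scores of the same hearts on the first and second principal components, where 5 NTG TAC hearts lie to the right of every TG TAC heart; numbers beside points are replicate numbers.

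Genes of oxidative phosphorylation had small differences in mean and mostly smaller standard deviations in TG TAC hearts. Of 50 tested genes of oxidative phosphorylation 0 were called in mean and 0 in spread, the median log2 fold change was 0.10 and 48 were positive. The standard deviation was smaller in TG TAC hearts for 49 of the 50, with a median log2 ratio of -1.67, against 76.3% and -0.44 over all tested genes. This was not particular to the list. The standard deviation was also smaller for all 20 tricarboxylic acid cycle genes (median -1.74), all 33 fatty acid oxidation genes (-1.63) and all 10 cardiomyocyte markers (-1.79). The summed level of the list ran from 39340 to 45637 CPM in TG TAC hearts and from 26503 to 45497 CPM in NTG TAC hearts, so NTG TAC hearts reached the TG TAC levels at the top and fell below them at the bottom. Ndufs1, a subunit of complex I, ran from 624 to 742 CPM in TG TAC hearts and from 381 to 754 CPM in NTG TAC hearts, and Atp5b, the catalytic subunit of ATP synthase, from 6530 to 7538 CPM in TG TAC hearts and from 4254 to 7311 CPM in NTG TAC hearts. NTG TAC replicate 10 was the lowest in both. The tricarboxylic acid cycle (20 tested genes) and fatty acid oxidation (33 tested genes) likewise had 0 calls of either kind. Aldh6a1, of valine breakdown, was the higher gene among 22 tested for branched-chain amino acids and ketones (0.50 ± 0.13, adjusted p = 0.0388), a call lost in 13 of the 20 fits (up to 0.0725). Of 24 tested genes of glucose uptake and glycolysis 2 were lower and 0 higher, with a median log2 fold change of -0.02. Pfkp, a phosphofructokinase, averaged 72.01 ± 8.83 CPM in TG TAC hearts and 142 ± 85.3 CPM in NTG TAC hearts (-0.98 ± 0.25, adjusted p = 0.0361), a call lost in 13 of the 20 fits (up to 0.0722). Eno1, the enolase, averaged 90.0 ± 7.43 CPM in TG TAC hearts and 113.5 ± 24.7 CPM in NTG TAC hearts (-0.34 ± 0.10, adjusted p = 0.0471), a call lost in 16 of the 20 fits (up to 0.0836). Reads of Eno1 could be shared with its near-identical copy Eno1b, which did not pass (-0.31 ± 0.10, adjusted p = 0.0665), so its value is uncertain.

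Of 22 tested sarcomere genes 1 was lower, Myom2, a myosin-binding protein of the M-band, with 1007 to 1356 CPM in TG TAC hearts and 1413 to 1944 CPM in NTG TAC hearts. The groups did not overlap (-0.47 ± 0.07, adjusted p = 0.000425 by edgeR). In calcium handling 1 of 22 tested genes was higher, Ryr2, through which stored calcium is released (0.33 ± 0.07, adjusted p = 0.0162), and 2 were lower, S100a1 and Sri. Ryr2 had 8 of 10 NTG TAC hearts below the TG TAC range and kept its call in each fit without a library, while S100a1 and Sri lost theirs in 11 and 14 fits, with adjusted p up to 0.0705 and 0.0857. Tmem38a, a cation channel of the sarcoplasmic reticulum that lies outside these lists, was higher with no overlap (0.30 ± 0.07). Gjc1, a connexin of the conduction system, was the lower gene among 27 tested ion channels and connexins (-0.52 ± 0.11, adjusted p = 0.0120).

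**Figure D5:**
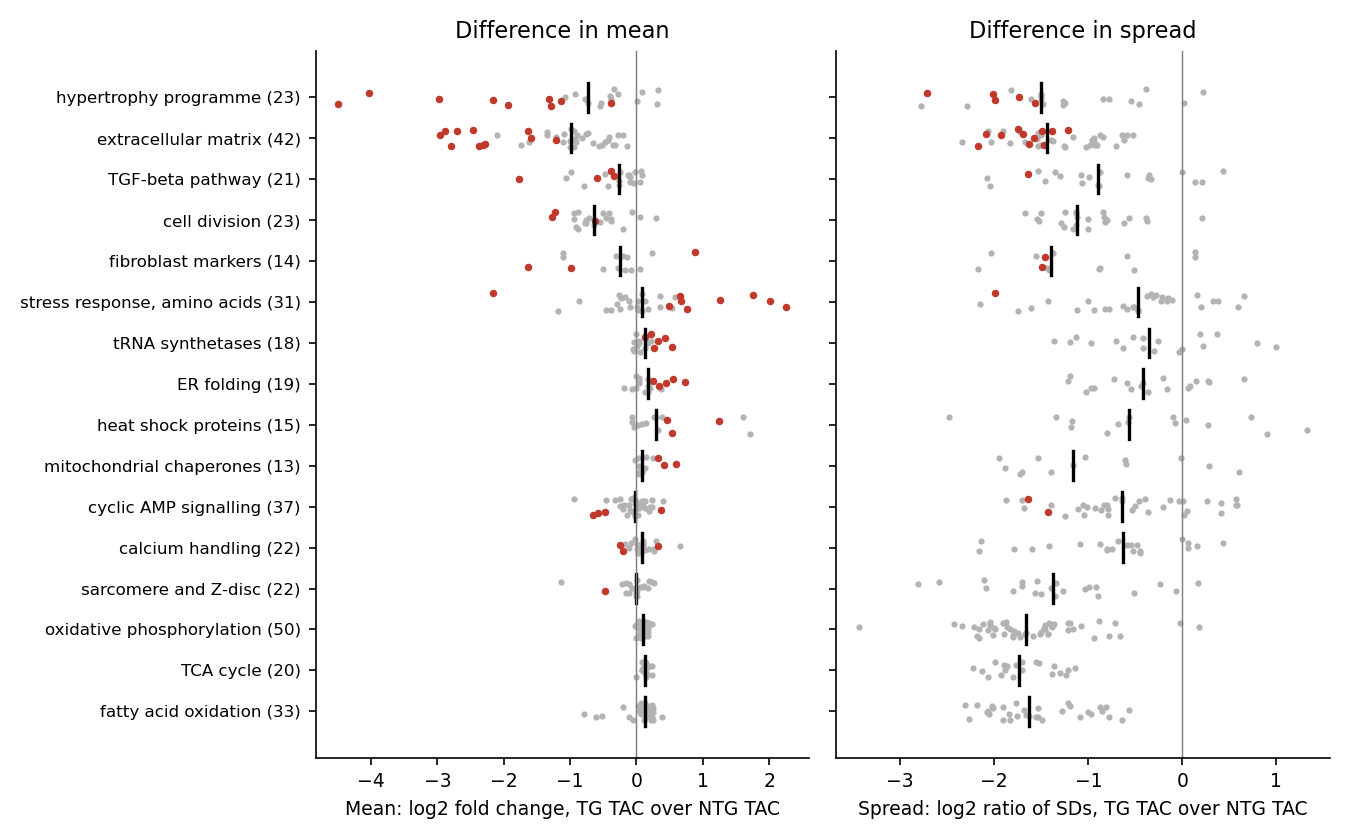
Log2 fold changes (left) and log2 ratios of standard deviations (right), TG TAC over NTG TAC, for the tested members of 16 gene lists, 1 point per gene, with the number tested beside each name, red where the gene passed the test of that panel and a black bar at the list median. Matrix genes and most hypertrophy genes lie left of 0 in both panels, chaperone and synthetase genes lie near or right of 0 in mean, and most genes of energy metabolism lie near 0 in mean and left of 0 in spread.

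Other genes stood apart in every heart without belonging to these groups, and are named here after their values were seen. Prlr, the prolactin receptor, ran from 15.6 to 21.3 CPM in TG TAC hearts and from 3.20 to 13.6 CPM in NTG TAC hearts (0.85 ± 0.17, adjusted p = 0.00685 by edgeR). Ddc, the decarboxylase that makes dopamine and serotonin, ran from 8.57 to 18.8 CPM in TG TAC hearts and from 1.51 to 7.58 CPM in NTG TAC hearts. It was higher in mean (1.499 ± 0.27, adjusted p = 0.00441) and narrower on the log scale (adjusted p = 0.0173, lost in 10 of the 20 fits). In CPM its standard deviation was not smaller, at 3.01 in TG TAC hearts and 2.43 in NTG TAC hearts. The secreted matricellular protein Smoc2 ran from 79.1 to 96.4 CPM in TG TAC hearts and from 103.9 to 141 CPM in NTG TAC hearts (-0.44 ± 0.06), and the protease inhibitor Cst3 from 570 to 644 CPM in TG TAC hearts and from 654 to 964 CPM in NTG TAC hearts (-0.34 ± 0.07). Other genes among the 10 largest rises were Cacng6, a gamma subunit of calcium channels (2.12 ± 0.36), and the membrane protease Tmprss13 (1.53 ± 0.26), with 9 of 10 NTG TAC hearts below the TG TAC range in each. Among the largest falls, the deiodinase Dio2, which activates thyroid hormone, averaged 2.48 ± 1.21 CPM in TG TAC hearts and 14.5 ± 14.7 CPM in NTG TAC hearts (-2.55 ± 0.61, adjusted p = 0.0285), and lost its call without TG TAC replicate 1 or 6 or NTG TAC replicate 2, 3 or 10 (up to 0.0575).

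Several lists held no called gene in mean. Of 23 tested immediate-early and CREB target genes, which cyclic AMP can raise, 0 were called, with a median log2 fold change of -0.02. The interferon response (20 tested), antioxidant genes (23 tested) and the circadian clock (18 tested) had 0 calls, with medians of -0.22, -0.02 and 0.08. Of 5 tested lymphocyte markers and 5 tested neutrophil and mast cell markers 0 were called. Of 12 tested endothelial markers 1, Ptprb, was lower (-0.20, adjusted p = 0.0482), and it was not among the 203 genes called in every fit without a library.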

How the data were processed

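Left ventricular RNA was sequenced as strand-specific mRNA libraries, per the labels. The authors deposited raw counts per gene for each library and CPM, the same counts per 1e+06 of the library. Per the submitters' processing notes, the tools were TopHat and Bowtie2 2.2.9 with the mm10 genome, Trim Galore 0.6.4 and edgeR 3.17. The counting program and its strand setting are not given in the sources used here. From the counts of the 20 TAC libraries, genes were filtered with filterByExpr (minimum count 10), scaled by TMM and tested for means with edgeR 4.0.16 (robust quasi-likelihood) under R 4.3.3. Spread was tested with limma 3.58.1 on absolute deviations of log2 CPM (prior count 2) from the group median. Both used Benjamini-Hochberg adjustment at 0.05. The spread test responds most where deviations within a group are of like size. Sham values and marker sums were scaled over all 30 libraries, and marker sums were taken per 1e+06 counts of all genes. Genes were named as the 10 largest rises and falls among called genes of at least 2 CPM, the 2 members of each list with the smallest p, the 10 largest spread differences, and known hypertrophy genes. Members and lists were chosen with earlier results of these data known. Scripts were tested on simulated data. DESeq2 1.42.0 was an alternative. The 90 pairs of libraries within a group differed by a chi-square per degree of freedom of at least 2.99, so none was counted as a duplicate.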

Additional observations from a re-analysis of the deposited data

Results flagged for a closer look

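In 15 of 244 tests of a gene within a group of 10, 1 heart stood apart from the others by Dixon's criterion at its critical value, where chance gives about 1 in 20. TG TAC replicate 1 stood apart for Myh6 (26200 CPM), Mhrt (69.9 CPM), Aars (164 CPM) and Iars (110 CPM) as the highest heart, and for Ltbp2 (2.05 CPM), Timp1 (2.33 CPM), Col8a1 (19.2 CPM) and Xirp2 (491 CPM) as the lowest. NTG TAC replicate 10 was the lowest for Myh6 (7330 CPM), Mhrt (11.9 CPM), Nav2 (80 CPM) and Hspa9 (553 CPM). TG TAC replicate 9 was the highest for Hspa1a (55.1 CPM), TG TAC replicate 10 the lowest for Smad7 (26.8 CPM), and NTG TAC replicate 2 the lowest for Dbh (0.801 CPM).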

How the results depend on the processing

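The number of genes called in mean (600) was 378 without a filter, 221 in libraries numbered under 100, 1288 with DESeq2 and 1553 in a model of all 30 libraries. It was 230 to 1489 when each library was left out. Of 95 named genes called in mean, 45 kept the call in all settings run and 50 lost it in some, and of 12 not called 4 were called in some. Of 22 named genes called in spread, 0 kept the call in all settings and 22 lost it in some, and of 9 not called 7 were called in some. In both, 0 reversed. Some alternatives were chosen after the data were seen: without NTG TAC replicates 2 and 10 the count was 236 in mean and 0 in spread, and an F test of variances called 830 genes in spread, and the group-mean deviations below were also rerun without each library. The spread count was 0 in libraries numbered under 100, 0 with squared deviations, 707 with deviations from the group mean, and 0 to 189 when each library was left out. With 9 hearts, the group median is itself 1 heart, whose deviation is 0. With deviations from the group mean it was 798, 455, 398, 405, 454, 522, 513, 388, 425 and 482 without TG TAC replicates 1 to 10, 686, 153, 813, 1271, 1020, 757, 1163, 929 and 319 without NTG TAC replicates 1, 2 and 4 to 10, and fewer than 153 without NTG TAC replicate 3. The smaller heart distance in TG TAC kept its call in every setting run, at -0.120 to -0.0846 when each library was left out. The difference between TAC and Sham effects was called for 5 genes by DESeq2 and 0 to 2 when each library was left out. With the replicate number as a block, 453 genes were called in mean, 123 in spread and 0 for the difference between TAC and Sham effects. Of 10 same-numbered pairs 2 had a correlation of deviations over 0.1. The highest was 0.578 and the median over the pairs was -0.0025. Of 10 TG TAC hearts 2 correlated best with their own number. Whether hearts of a pair were handled together was not tested. Causes of these shifts were not tested. Rxfp1 and other genes of few counts could not be tested at this depth.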
